A study of Homo sapiens with 4 samples.

Results

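The loops of chromosome 11 were taken as every row of the authors' deposited table of high-confidence loops whose first anchor lies on that chromosome. There were 2628 of them among 22680 in all, or 11.6% of the table. A loop here is a pair of anchors, short genomic segments joined by paired-end tags (PETs), each PET being a sequenced fragment with one end in each anchor. The contacts were measured by HiChIP in A673, an Ewing sarcoma cell line that carries a fusion of EWSR1 and FLI1. In HiChIP, fixed chromatin is cut and religated so that neighbouring ends join, and the joined fragments bound by one protein, here SMC1, are precipitated. The 2 STAG2-null libraries carried a Cas9-made loss of STAG2 and came from clones grown from single cells, and the 2 wild-type libraries were of A673 with intact STAG2. The labels give no treatment, time or separate cultures, and a p-value therefore speaks only of how far these 4 libraries spread, whatever the source of that spread.

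SMC1 is a core subunit of cohesin, the ring-shaped complex that extrudes chromatin into loops until it meets CTCF bound to DNA. Each cohesin ring carries 1 STAG protein; STAG2 is the more abundant of the alternatives in most cells and is recurrently mutated in Ewing sarcoma. FLI1, the ETS-family partner in the fusion, has its own gene on the long arm of chromosome 11. ETS factors recognise a GGAA core, and the fusion is known to bind runs of GGAA repeats. Contacts do not measure transcripts, so neither the loss of STAG2 nor markers of the cell type could be checked here. DNA copies were not measured either, so contacts per copy cannot be given.

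The sequences that follow are the 250 bases before the start of 4 genes with promoter anchors that the results turn on: WDR74 and SLC3A2 at the loop with the smallest p for a departure from its region, DIXDC1 at the other called loop, and WT1 at a loop below its region. They come from RefSeq on GRCh38.p14, whereas all loop coordinates in the text are on hg19, so the 2 sets of positions must not be compared. The table held 4 of the 5 genes looked for, and CRYAB was not matched. Capitals mark 1 of 3 motifs searched on both strands: an ETS core (CCGGAAGT), part of the CTCF motif (AGNGGGCGC) and a GGAA repeat (GGAAGGAA). Among 35114 promoter stretches of the same length these matched 3.42%, 3.73% and 3.06%. The stretches are WDR74 at chr11:62839591-62839840 on the minus strand, SLC3A2 at chr11:62855859-62856108 on the plus strand, DIXDC1 at chr11:111927065-111927314 on the plus strand and WT1 at chr11:32435540-32435789 on the minus strand.
WDR74: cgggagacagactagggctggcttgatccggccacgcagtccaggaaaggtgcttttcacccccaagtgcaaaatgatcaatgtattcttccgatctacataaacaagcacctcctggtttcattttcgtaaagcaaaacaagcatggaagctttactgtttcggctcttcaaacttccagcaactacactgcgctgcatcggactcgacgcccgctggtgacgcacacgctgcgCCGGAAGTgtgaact
SLC3A2: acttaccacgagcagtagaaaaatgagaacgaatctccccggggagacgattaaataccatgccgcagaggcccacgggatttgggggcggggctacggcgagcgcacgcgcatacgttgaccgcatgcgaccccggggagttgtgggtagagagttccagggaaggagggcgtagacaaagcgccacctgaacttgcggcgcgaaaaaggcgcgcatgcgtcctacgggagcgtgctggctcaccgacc
DIXDC1: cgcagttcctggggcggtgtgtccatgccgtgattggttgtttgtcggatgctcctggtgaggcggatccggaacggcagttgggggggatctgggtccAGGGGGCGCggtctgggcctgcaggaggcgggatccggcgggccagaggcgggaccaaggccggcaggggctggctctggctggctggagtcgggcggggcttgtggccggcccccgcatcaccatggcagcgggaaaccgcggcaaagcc
WT1: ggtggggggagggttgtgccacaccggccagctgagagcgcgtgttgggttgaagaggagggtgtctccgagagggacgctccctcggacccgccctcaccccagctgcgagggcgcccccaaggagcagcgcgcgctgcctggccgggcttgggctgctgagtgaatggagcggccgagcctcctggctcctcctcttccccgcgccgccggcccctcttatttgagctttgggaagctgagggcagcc
The WDR74 stretch held the ETS core near its gene start, the DIXDC1 stretch held the CTCF part, and the other 2 held none of the 3 strings. The WDR74, DIXDC1 and WT1 stretches are the first of 2, 3 and 4 starts in the table and were not placed on the anchors. Of 3 SLC3A2 starts, only the one shown lies at a distance from that WDR74 start (16.5 kb) that the anchors of their loop allow (5.21 to 20.3 kb).

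The libraries held 661881 to 765017 PETs, of which 62817 to 73400 lay on chromosome 11, and in each library 70.6% to 72.1% of the chromosome's anchor pairs rested on 1 PET. Loops of chromosome 11 held 8 to 228 PETs summed over the 4 libraries, with a median of 20, and spanned 5.02 to 1272 kb between anchor midpoints. Their median span of 29.6 kb was close to that of chromosome 12 (28.9 kb) and above that of all loops (24.5 kb). A loop was tested where its summed PETs reached 20, which 1422 of the 2628 loops did; 122 loops sat at 20 PETs and 140 at 19. The loops used 1572 anchors, with a median of 2 loops an anchor and at most 30.

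Loops were crowded into a few stretches of both arms. The arms were told apart by the widest anchor-free gap, 3.67 Mb between chr11:51453984 and chr11:55124356, which left 845 loops on the short arm and 1783 on the long arm. In 5 Mb steps, the step from 65 to 70 Mb held 450 loops and 35422 PETs, and its neighbour from 60 to 65 Mb held 386 loops and 30585 PETs. The next were 278 loops at 45 to 50 Mb, 253 at 130 to 135 Mb and 247 at 30 to 35 Mb. The first 5 steps of the short arm held 14, 3, 21, 5 and 0 loops.

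Chromosome 11 took a slightly smaller share of the PETs in the STAG2-null libraries. Its share was 9.32% and 9.0% in STAG2-null 1 and 2 and 9.60% and 9.59% in wild-type 1 and 2. The means were 9.16% ± 0.227 and 9.60% ± 0.00229 (SD, n = 2 each), a log2 ratio of -0.067. The groups did not overlap, but the exact two-sided permutation p was 0.333, the smallest that 2 against 2 libraries can give. The short arm moved from 3.30% ± 0.0143 in wild-type to 3.08% ± 0.0931 in STAG2-null libraries (log2 ratio -0.099) and the long arm from 6.30% ± 0.0165 to 6.08% ± 0.133 (log2 ratio -0.051). The ratio of long-arm to short-arm PETs was 1.96 and 1.99 in STAG2-null and 1.92 and 1.90 in wild-type libraries, again apart at the smallest possible exact p of 0.333. Chromosome 12 lay the other way, at 7.58% ± 0.0748 against 7.47% ± 0.0469. Counted over high-confidence loops alone, the long arm turned to a log2 ratio of 0.016.

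**Figure D1:**
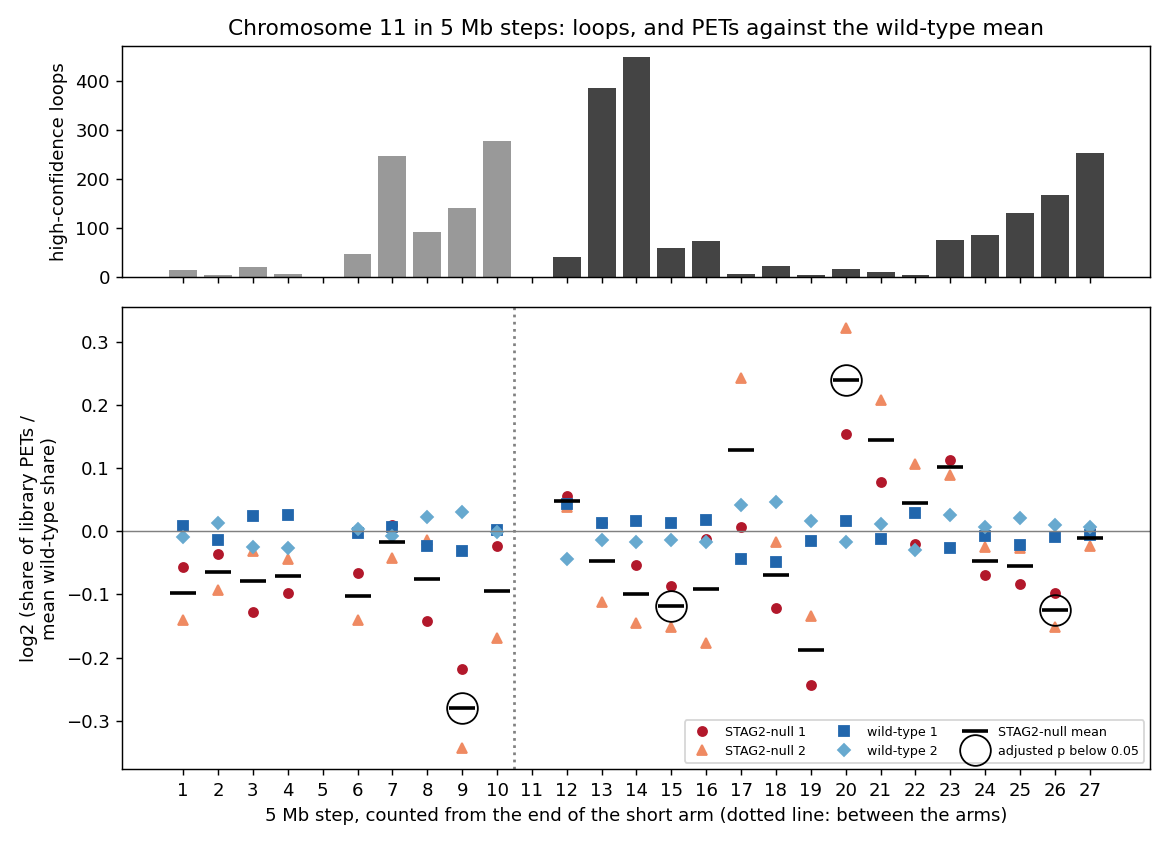
Upper panel: high-confidence loops in each 5 Mb step of chromosome 11, short arm in light and long arm in dark grey. Lower panel: each library's share of PETs in the step over the mean wild-type share, as log2, with the STAG2-null mean as a bar and circles at adjusted p below 0.05; the bars fall below 0 in 19 of the 25 steps tested, and the step from 40 to 45 Mb is lowest.

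Along the arms the genotype ratio, taken as the log2 of STAG2-null over wild-type mean shares of all pairs, was below 0 in 19 of 25 steps and above 0 in 6. Steps needed 500 PETs to be tested, and those from 20 to 25 Mb and 50 to 55 Mb fell short with 262 and 29. All 9 short-arm steps tested were below 0, with a median of -0.079, as were 10 of 16 long-arm steps, with a median of -0.047. With edgeR's quasi-likelihood test and Benjamini-Hochberg adjustment over 498 steps of all chromosomes, 3 steps were lower and 1 was higher in STAG2-null libraries. The background was 13.9% of all steps called lower and 20.3% called higher, against 12% and 4% here. Libraries separated by group in 13 steps that were lower (background 29.3%) and 3 that were higher (background 40.8%), and overlapped in 9. The genotype ratios of the 25 steps had an SD of 0.11. Log2 ratios between single libraries had an SD of 0.11 for the 2 STAG2-null libraries and 0.0463 for the wild-type ones. The genotype ratio compares means of 2 libraries, which vary less than single ones, so these SDs are not on one footing. Over 473 steps of other chromosomes the genotype ratios had an SD of 0.25.

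The lowest step ran from 40 to 45 Mb on the short arm. It took 0.450% and 0.413% of PETs in STAG2-null 1 and 2 and 0.513% and 0.536% in wild-type 1 and 2. Both STAG2-null libraries were below both wild-type ones, and the fitted log2 difference was -0.28 ± 0.0462 (SE; adjusted p = 2.49e-05, edgeR). Without wild-type 2 the value was -0.25 and the adjusted p 0.0781, so the call ended. In 1 Mb steps the lower shares lay side by side from 44 to 45 Mb (log2 ratio -0.34) and 45 to 46 Mb (-0.27), with groups apart in both. Of the thinner steps, 42 to 43 Mb was lower too (-0.24) and 41 to 42 Mb was higher (0.29), each with groups apart. The 1 Mb steps on either side of the pair, at 43 to 44 Mb and 46 to 47 Mb, had ratios of 0.0031 and -0.019 and overlapping libraries.

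The other called steps moved less or held fewer PETs. The step from 70 to 75 Mb took 0.371% and 0.355% in STAG2-null against 0.398% and 0.391% in wild-type libraries (log2 -0.12 ± 0.0439, adjusted p = 0.0363, edgeR). From 125 to 130 Mb the shares were 0.571% and 0.550% against 0.607% and 0.615% (log2 -0.12 ± 0.0438, adjusted p = 0.0292, edgeR). The step called higher ran from 95 to 100 Mb, with 0.0691% and 0.0777% in STAG2-null against 0.0629% and 0.0614% in wild-type libraries (log2 0.24 ± 0.0901, adjusted p = 0.0382, edgeR). It rested on 1900 PETs, and the call ended without STAG2-null 2 or either wild-type library and with DESeq2. The 2 smaller declines were also lost without either wild-type library (from 70 to 75 Mb without STAG2-null 2 too), with DESeq2 and with the replicate number as a block (adjusted p = 0.0787 and 0.0662). Between 95 and 115 Mb, 4 neighbouring steps all had ratios above 0, at 0.24, 0.14, 0.045 and 0.10, of which only the first was called.

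Short and long contacts moved apart along the whole chromosome. Pairs of at least 20 kb had a ratio below 0 in 19 of 25 steps, with a median of -0.11, and pairs under 20 kb had one above 0 in 21, with a median of 0.093. The shorter pairs lay above the longer in 24 of 25 steps, the exception being the step from 25 to 30 Mb. Pairs under 20 kb made up 21.5% and 22.6% of the chromosome's PETs in STAG2-null 1 and 2 and 20.5% and 19.7% in wild-type 1 and 2. The groups did not overlap (exact permutation p = 0.333, the smallest possible). The same shares over all chromosomes were 20.8% and 22.2% against 19.9% and 19.2%, and over chromosome 12 they were 20.1% and 21.7% against 19.5% and 18.7%, so the shift was not seen on chromosome 11 alone. When each class was instead divided by its own library total, the medians of the tested steps were -0.056 for pairs under 20 kb and -0.074 for longer ones.

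**Figure D2:**
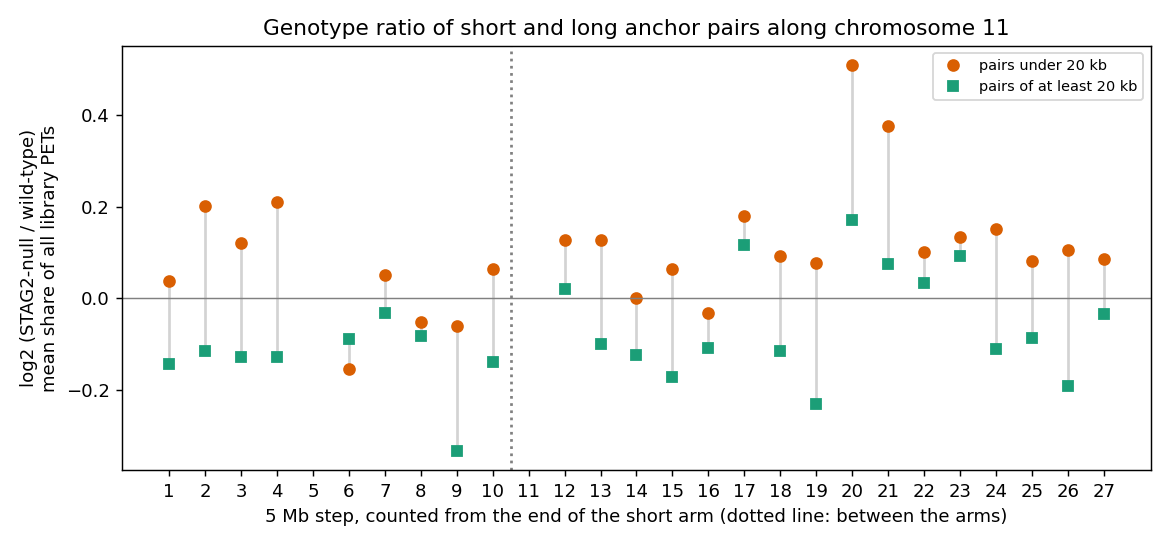
Genotype ratio of pairs under 20 kb (circles) and of at least 20 kb (squares) in each 5 Mb step, as log2 of mean shares of all PETs of a library in STAG2-null over wild-type. Circles lie above squares in 24 of 25 steps.

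The loops themselves also differed by length. Among tested loops, the median log2 difference was 0.041 for 770 spanning 5 to 20 kb, -0.14 for 288 spanning 20 to 50 kb and -0.28 for 147 spanning 50 to 100 kb. The median then lay at -0.17 for the 120 loops of 100 to 200 kb, at -0.045 for the 84 of 200 to 500 kb and at 0.31 for the 13 longest. Medians over all chromosomes in the same classes were 0.088, -0.12, -0.25, -0.18, 0.043 and 0.31. Over all 1422 tested loops of chromosome 11 the median difference was -0.046, against -0.044 for all loops tested in the genome, and it was -0.16 on the short arm and -0.044 on the long arm.

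Single loops were compared in 2 ways: as a plain genotype difference after TMM scaling, and as a departure from the regional ratio, in which each library's PETs in the loop's own 5 Mb step served as its total. Both used edgeR's quasi-likelihood test, fitted and adjusted over 11872 pairs of all chromosomes. The plain difference called 2 loops of chromosome 11 higher in STAG2-null libraries and 0 lower, where the backgrounds were 0.0842% and 0.11%. The departure called 1 loop above its region and 0 below, with backgrounds of 0.0253% and 0. Without adjustment, at p under 0.05, the difference gave 51 loops higher (3.59%; background 4.84%) and 58 lower (4.08%; background 4.75%). Scaled by library totals alone, the split was 66 higher and 41 lower. The departure gave 84 above (5.91%, background 5.37%) and 26 below (1.83%, background 2%). It gave 63 above and 55 below once the median of all tested loops was set to no change. DESeq2 called 0 loops in either comparison and put 4 loops higher and 8 lower on unadjusted p for the difference. Normalised PETs separated the groups in 244 loops higher (17.2%; background 19.7%) and 290 lower (20.4%; background 20.3%).

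From here on, 4 PET counts in a row are those of STAG2-null 1, STAG2-null 2, wild-type 1 and wild-type 2, and normalised PETs are per 1000000 of the TMM-scaled library total. None of the 15 strongest loops was called by either comparison. The SLC3A2 loop described below, which was called by both, ranked just outside them, at 16 with 131 PETs. The 15 held 133 to 228 PETs each, and 13 of them spanned less than 50 kb. Their libraries overlapped between groups in 10 loops, and the other 5 comprised 4 higher and 1 lower in STAG2-null libraries. Their median difference was 0.21 and their median departure 0.26, against 0.094 for the departure over all tested loops of the chromosome, 0.19 over those of 5 to 20 kb and 0.15 in the fit limited to at least 40 PETs.

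The strongest loop joined chr11:65181807-65196864 with chr11:65263638-65279149 over 82.1 kb and held 49, 76, 55 and 48 PETs. Its STAG2-null libraries lay on both sides of wild-type 1, and its difference of 0.23 ± 0.24 turned to -0.075 without STAG2-null 2. The next joined chr11:118771127-118784770 with chr11:118786751-118802866, with 56, 51, 47 and 66 PETs and a difference of -0.12 ± 0.25. The third, with 66, 68, 45 and 40 PETs, shared the downstream anchor of the first and reached only 13.2 kb back from it, to chr11:65253882-65262406. Here both STAG2-null libraries lay above both wild-type ones, at 94 ± 2.18 against 61.9 ± 9.73 normalised PETs (SD, n = 2 each). It stood 0.80 ± 0.19 above its region, the second smallest p of the chromosome for a departure, and its adjusted p was 0.101. The authors' deposited table flags CTCF and H3K27ac, a histone mark of active enhancers and promoters, at the shared anchor, H3K27ac at the other, and names no gene for the 13.2-kb loop.

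In some strong loops single libraries stood apart from the rest. A 12.3-kb loop between chr11:61617959-61626120 and chr11:61626767-61641818 held 67, 40, 50 and 56 PETs, so that the 2 STAG2-null libraries bracketed the wild-type ones. A 14.8-kb loop from chr11:34151394-34165057 to chr11:34168454-34177566 held 35, 27, 26 and 57 PETs, with wild-type 2 well above the other three. The longest strong loop, 114 kb from chr11:33876366-33886335 to chr11:33991706-33999381, held 45, 41, 25 and 42 PETs, where wild-type 1 was the low library. Its left anchor took part in 30 loops, more than any other on the chromosome. PETs of all pairs at that anchor were 311, 348, 283 and 329 (log2 ratio 0.15), with the groups apart once normalised (477 ± 30.4 against 429 ± 1.76).

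**Figure D3:**
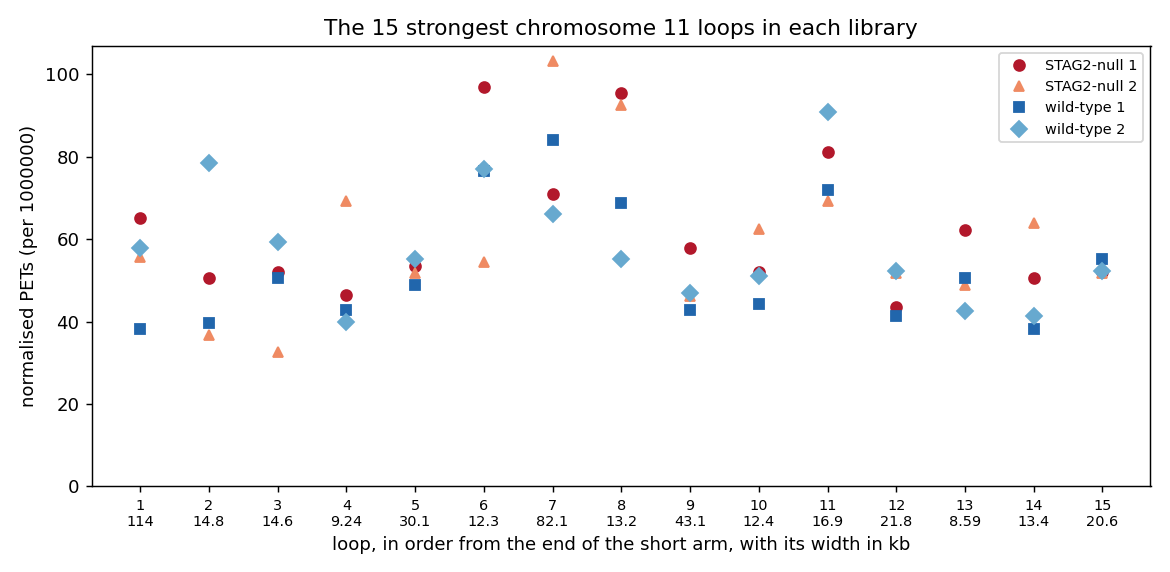
Normalised PETs, per 1000000 of the TMM-scaled library total, of the 15 strongest loops in each of the 4 libraries, in order along the chromosome with each loop's width. The libraries of the groups overlap in 10 of the 15.

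The loop with the smallest p for a departure from its regional ratio lay at the promoters of SLC3A2, the heavy chain of several amino acid transporters, and WDR74, a factor of ribosome assembly. It joined chr11:62605688-62611475 with chr11:62616686-62625964 over 12.7 kb and held 49, 45, 22 and 15 PETs. Both STAG2-null libraries were above both wild-type ones, at 66.1 ± 6.89 against 27.1 ± 9.19 normalised PETs (SD, n = 2 each). The log2 difference was 1.29 ± 0.30 (adjusted p = 0.0275, edgeR), and the step that holds the loop, from 60 to 65 Mb, itself had a ratio of -0.048. The departure was 1.43 ± 0.28 (adjusted p = 0.00471, edgeR). The deposited table flags H3K27ac and a promoter at both anchors and FLI1 at the upstream one. The WDR74 stretch printed above, which was not placed on either anchor, is the one with an ETS core.

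Leaving out any 1 library ended the call on the difference (adjusted p 0.0764 to 0.673), and of these fits the departure was called only without wild-type 1 (0.0381 to 0.552). The log2 departure stayed between 1.09 and 1.82. PETs of all pairs at the upstream anchor were 176, 165, 124 and 134 (log2 ratio 0.45). At the downstream anchor they were 166, 148, 103 and 135 (log2 ratio 0.45). Both sums include the 49, 45, 22 and 15 PETs of the loop itself, so they are no separate evidence of a rise. A further loop that the deposited table assigns to SLC3A2, between chr11:62646187-62652687 and chr11:62655368-62660155, held 15, 26, 5 and 13 PETs. Its departure was 1.28 ± 0.43 (adjusted p = 0.462, edgeR).

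The other loop called on the difference was a 12.3-kb loop at the anchor of CRYAB, a small heat-shock protein, and DIXDC1, which acts in Wnt signalling. It joined chr11:111792794-111799049 with chr11:111806269-111810162 and held 9, 12, 1 and 1 PETs. With 21 PETs against 2, the ratio scaled for library size was 10.2, with an exact 95% binomial interval of 2.48 to 89.4 that covers counting error only. The log2 difference was 3.19 ± 0.80 (adjusted p = 0.0401, edgeR). The departure was 3.19 ± 0.78 and missed the threshold (adjusted p = 0.105, edgeR), and the difference did so without any 1 library (0.138 to 0.535) and with the replicate block (0.0505).

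The same anchor had 2 more tested loops. A 6.94-kb loop towards chr11:111801816-111803915 held 13, 16, 3 and 6 PETs, with the groups apart and a departure of 1.61 ± 0.54 (adjusted p = 0.462, edgeR). A 6.12-kb loop on the other side, from chr11:111789023-111790589, held 3, 8, 8 and 6 PETs, with overlapping libraries and a departure of -0.39 ± 0.59. PETs of all pairs at the anchor were 70, 91, 46 and 49, a log2 ratio of 0.80. This sum includes the called loop and the 6.94-kb loop, so it is no separate evidence of a rise.

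The 10 loops with the smallest p on each side of their regional ratio differed in arm and in flags. All 20 are also in the authors' deposited list of differential loops, and in all 20 the libraries separated by group, so the direction of each is fixed by the choice. Apart from the SLC3A2 loop the adjusted p ran from 0.101 to 0.494. Of the 10 above their region 9 lay on the long arm, and of the 10 below 8 lay on the short arm. Of all tested loops, 956 lay on the long arm and 466 on the short arm. At unadjusted p under 0.05 for the difference (edgeR), 28 loops were lower on the short arm and 30 on the long arm. Those higher numbered 12 and 39, so the contrast in arm was smaller there. In that deposited list H3K27ac was flagged at either anchor in 9 of the loops above and 3 of those below. Over all of the list's loops on the chromosome it was flagged in 25 of the 32 stronger in STAG2-null and 15 of the 25 stronger in wild-type libraries, a smaller contrast. CTCF was flagged at either anchor in 5 above and 8 below, against 19 of 32 and 20 of 25. A promoter gene was named for 6 above and 1 below, against 10 of 32 and 8 of 25, so the contrast among the chosen loops was not seen over the list. The median span was 13 kb above and 21.1 kb below. These counts describe loops chosen by their values and were not tested.

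Above their region stood several loops with few PETs in wild-type libraries. The longest named loop on the chromosome, 1108 kb from chr11:131773710-131788806 to chr11:132882716-132895659, spans NTM and OPCML, which encode neural cell-adhesion proteins of one family. It held 11, 11, 3 and 2 PETs and departed by 2.14 ± 0.63. At TSKU, which encodes a secreted leucine-rich repeat protein, a 14.6-kb loop between chr11:76492897-76498529 and chr11:76508715-76511971 held 10, 12, 3 and 3 PETs and departed by 1.97 ± 0.60. An 8.91-kb loop between promoters of EML3, ROM1 and B3GAT3, from chr11:62377975-62382293 to chr11:62387254-62390842, held 16, 12, 5 and 4 PETs and departed by 1.70 ± 0.54. B3GAT3 makes part of the linker that joins sugar chains to proteoglycans, ROM1 is a photoreceptor membrane protein and EML3 binds microtubules.

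Others held more PETs and moved by less. A 5.84-kb loop with no named gene or flag, from chr11:126001697-126007386 to chr11:126008318-126012449, held 29, 29, 16 and 15 PETs and departed by 1.07 ± 0.34. A 385-kb loop that spans BARX2, a homeobox gene, from chr11:129232656-129235421 to chr11:129616043-129623023, held 16, 23, 9 and 8 PETs and departed by 1.36 ± 0.43. Both anchors of the BARX2 loop are flagged for CTCF. The lowest STAG2-null library stayed above the highest wild-type library in each.

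Below their region, the loop with the smallest p lay near GLB1L2 and B3GAT1, the second of which makes the HNK-1 sugar epitope. It joined chr11:134247100-134258196 with chr11:134258916-134265919 and held 4, 4, 18 and 13 PETs, a departure of -1.87 ± 0.54 (adjusted p = 0.331, edgeR). A loop at OTUB1, a deubiquitinase, and MACROD1, which removes ADP-ribose, held 5, 2, 13 and 15 PETs between chr11:63763430-63782435 and chr11:63783382-63786428 (departure -1.87 ± 0.57). Its upstream anchor, flagged for CTCF, took part in 25 loops. PETs of all pairs there were 210, 195, 272 and 250 (log2 ratio -0.33). A 7.99-kb loop at PSMD13, a proteasome subunit, held 4, 3, 8 and 16 PETs (departure -1.60 ± 0.58).

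Loops of 2 neighbouring stretches at PRR5L, which encodes a partner of the mTORC2 kinase complex, were both lower. The first, from chr11:36466004-36472233 to chr11:36475986-36478605, held 1, 5, 10 and 16 PETs and the second, from chr11:36480255-36492106 to chr11:36499245-36501614, held 1, 5, 10 and 12. They departed by -1.95 ± 0.60 and -1.71 ± 0.61, and STAG2-null 1 was the lowest library in both.

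At WT1, the Wilms tumour zinc-finger transcription factor, a 48.9-kb loop from chr11:32402110-32415994 to the promoter anchor at chr11:32453425-32462574 held 15, 10, 26 and 31 PETs. The means were 17.7 ± 5.74 against 41.2 ± 2.06 normalised PETs (SD, n = 2 each), and the departure was -1.12 ± 0.36 (adjusted p = 0.443, edgeR). A 14.5-kb loop of the same promoter held 6, 11, 11 and 21 PETs (departure -0.84 ± 0.46), and a 7.95-kb loop held 18, 23, 17 and 33 and overlapped between groups (-0.22 ± 0.33).

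**Figure D4:**
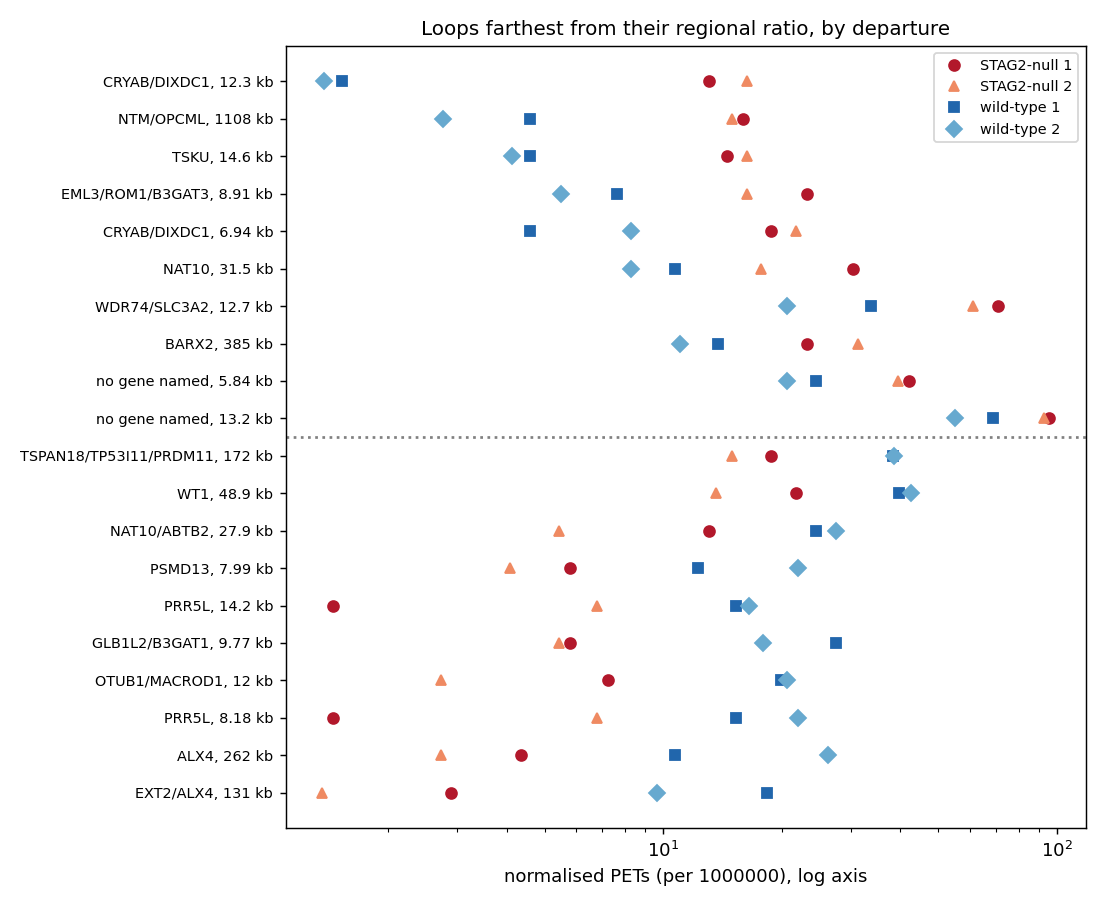
Normalised PETs (per 1000000, log axis) in each library for the 10 loops with the smallest p above their regional ratio (upper rows) and the 10 below (lower rows), ordered by departure, with the genes that the deposited table names and each loop's width. Libraries separate by group in every row, which the choice of loops fixes.

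Several departing loops shared an anchor with loops that moved otherwise. At ALX4, a homeobox gene, and EXT2, an enzyme of heparan sulfate synthesis, the anchor at chr11:44277073-44293587 had 7 tested loops. A 131-kb loop leftwards to chr11:44151800-44156195 held 2, 1, 12 and 7 PETs. Scaled for library size, its wild-type sum was 6.54 times its STAG2-null sum. The exact 95% binomial interval of 1.93 to 34.5 covers counting error only. A 262-kb loop rightwards to chr11:44541617-44553648 held 3, 2, 7 and 19 PETs. They departed by -2.25 ± 0.75 and -2.00 ± 0.63, on top of the lowest regional ratio of the chromosome. The 5 loops of the same anchor under 50 kb departed by -0.10 to 0.27, among them a strong loop with 36, 24, 33 and 43 PETs (-0.011 ± 0.26). PETs of all pairs at the anchor were 181, 145, 204 and 257 (log2 ratio -0.45).

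In the next Mb, a 172-kb loop between 2 CTCF-flagged anchors, chr11:44947229-44959598 and chr11:45122901-45128548, spanned TSPAN18, TP53I11 and PRDM11. It held 13, 11, 25 and 28 PETs and departed by -0.99 ± 0.37. That departure is from the step from 45 to 50 Mb, which had a ratio of -0.094. The 1 Mb step from 45 to 46 Mb, which holds the loop's midpoint, had a lower ratio of -0.27. A departure from that 1 Mb step was not tested. The loop's normalised mean was 16.9 ± 2.73 in STAG2-null and 38.4 ± 0.22 in wild-type libraries.

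At NAT10, an RNA acetyltransferase, loops of 1 anchor moved both ways. The anchor at chr11:34151394-34165057, flagged for H3K27ac, had 7 tested loops, and PETs of all its pairs were 215, 170, 183 and 216 (log2 ratio -0.0009). Leftwards, its 31.5-kb loop to the NAT10 promoter at chr11:34124727-34128792 held 21, 13, 7 and 6 PETs (departure 1.43 ± 0.48). A 277-kb loop that spans CAPRIN1 and LMO2, a transcriptional cofactor of blood development, held 13, 6, 2 and 3 (1.94 ± 0.66). Rightwards, a 27.9-kb loop to chr11:34180209-34192139 held 9, 4, 16 and 20 (-1.39 ± 0.47), while a 221-kb loop to chr11:34375142-34382466 held 12, 12, 5 and 5 (1.30 ± 0.53). In each of these 4 loops the libraries separated by group, and none was called. The strong 14.8-kb loop described above belongs to the same anchor.

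**Figure D5:**
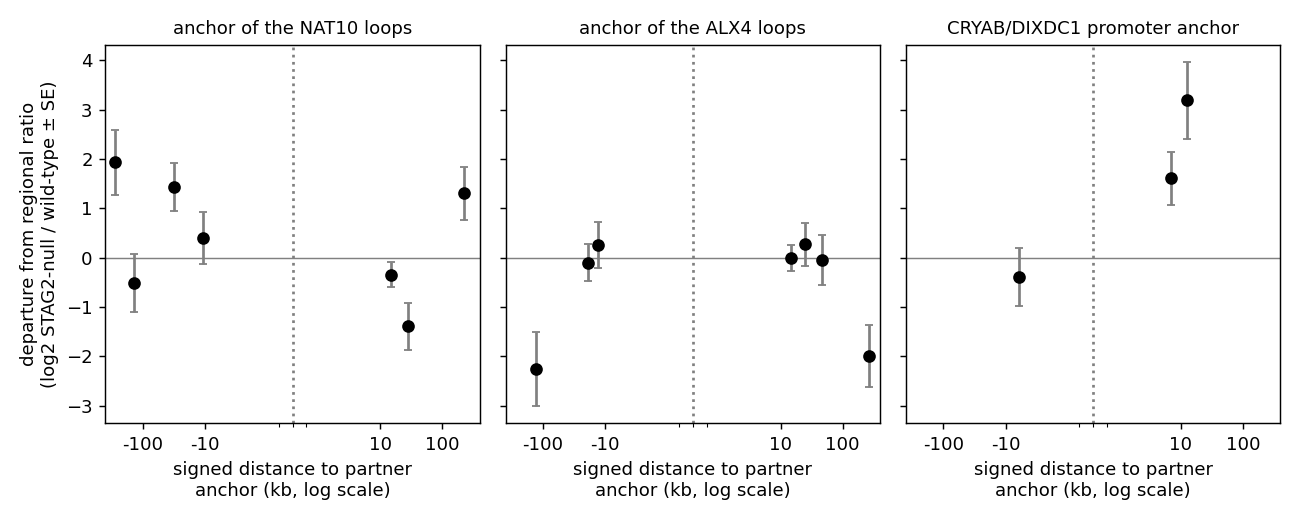
Departure from the regional ratio (log2 of STAG2-null over wild-type, with SE) of every tested loop at 3 shared anchors, against the signed distance to the partner anchor in kb. At the NAT10 anchor loops lie between -1.39 and 1.94, at the ALX4 anchor the 2 longest lie lowest, and at the CRYAB and DIXDC1 anchor both loops to the right lie above 0.

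Anchors with many loops can be compared on the PETs of all their pairs. At MYEOV, a gene of the 11q13 region amplified in some tumours, the promoter anchor at chr11:69058400-69082448 took part in 27 loops and held 266, 247, 302 and 373 PETs (log2 ratio -0.34). An anchor with 28 loops at chr11:69450173-69479002 held 358, 375, 394 and 422 (-0.11), and one with 25 at chr11:34375142-34382466 held 225, 312, 190 and 257 (0.32), where the groups overlapped. The anchor at the right end of the ALX4 loop, with 22 loops, held 222, 186, 273 and 318 (-0.49). The 1 Mb step from 44 to 45 Mb, which holds this anchor and the ALX4 anchor described earlier, itself had a ratio of -0.34 over all pairs. The WT1 promoter anchor, with only 7 loops, held 109, 90, 154 and 156 (-0.60). Other anchors of 22 to 24 loops had log2 ratios of 0.36, 0.18, 0.047, 0.01 and -0.014. The 30-loop anchor and the OTUB1 anchor described earlier had 0.15 and -0.33. For the log2 ratios, these sums and the anchor sums given earlier were scaled by library totals without TMM factors. All of these sums include any departing loop of the anchor and were not tested.

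The authors' deposited table of differential loops listed 57 loops on chromosome 11 out of 650. Of these, 32 were stronger in STAG2-null libraries, or 1.22% of the chromosome's loops (background 1.54%), and 25 in wild-type libraries, or 0.951% (background 1.32%). Their adjusted p in that table ran from 0.00647 to 0.0982. The 40 of them tested here all had the same direction, but the list was made from the same 4 libraries, so this is no independent check. Either anchor was flagged for CTCF in 59.4% and 80% (66.6% and 81% over the whole deposited table), for H3K27ac in 78.1% and 60% (86.6% and 76.7%) and for FLI1 in 25% and 16% (30.6% and 20.7%). Both anchors were flagged for CTCF in 2 and 10, for H3K27ac in 12 and 2, and for FLI1 in 2 and 2. The median span was 13.9 kb against 49.0 kb; over the whole deposited table it was 12 kb against 40.9 kb.

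The other 17 held 12 to 19 PETs, below the minimum of the main test. With a minimum of 10 PETs none of the 17 was called by the difference (adjusted p 0.368 to 0.611, edgeR). All 17 had an unadjusted p under 0.05, but the list was chosen on these same libraries, so this is no separate evidence. At ZBTB16, a zinc-finger transcriptional repressor, a 95.6-kb loop held 0, 0, 6 and 6 PETs, and the exact 95% interval of the ratio of STAG2-null to wild-type reached 0.348. A 111-kb loop to the same right anchor held 1, 2, 6 and 8, while a 23.4-kb loop within that span, which was tested, held 24, 25, 13 and 13 (difference 0.86 ± 0.37, adjusted p = 0.404, edgeR). At CLMP, a cell-adhesion molecule, a 60.3-kb loop with 6, 2, 17 and 7 PETs and a 31.0-kb loop with 7, 11, 3 and 2 PETs ended on the same right anchor and lay in opposite directions. Their differences were -1.60 ± 0.57 and 1.75 ± 0.68 (adjusted p = 0.277 and 0.339, edgeR). Of 2 MYEOV loops, the 171-kb loop to the promoter anchor held 1, 2, 9 and 7 PETs and a 557-kb loop spanning it held 7, 5, 1 and 0. For a sum of 1 to 3 PETs in a group, the 95% intervals of the ratio of STAG2-null to wild-type were wide: 0.0382 to 0.743 for the 111-kb ZBTB16 loop, and 0.0339 to 0.634 and 1.72 to 497 for the MYEOV loops. These intervals, and that of the 95.6-kb loop, cover counting error only.

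Genes could be set on loops only through that deposited list, which was chosen on these libraries, so counts over gene lists are no independent evidence of a direction. Among 6 adhesion and neural genes, NTM and OPCML had tested loops. NTM had 5 loops and OPCML 2 in the list, 1 of them shared, and all were stronger in STAG2-null libraries. A 78.6-kb NTM loop held 9, 20, 6 and 6 PETs and an 11.5-kb OPCML loop 12, 19, 5 and 7. Among 10 genes of amino acid transport and the 11q12 to 11q13 neighbourhood, SLC3A2, WDR74, FADS1 and FADS2 had tested loops. FADS1 and FADS2 encode fatty acid desaturases. A loop at FADS2 and neighbouring promoters held 3, 4, 10 and 10 PETs (departure -1.39 ± 0.60, adjusted p = 0.546, edgeR), and the strongest FADS1 loop held 28, 30, 21 and 22 (0.52 ± 0.31). Of 10 developmental transcription factors, WT1, LMO2, PKNOX2 and BARX2 had tested loops; a 5.86-kb PKNOX2 loop held 3, 7, 7 and 11 PETs, its groups apart and its departure -0.66 ± 0.57. CRYAB and DIXDC1 were the 2 of 4 stress genes with one. No tested loop could be set on the 11 imprinted genes of 11p15, the 5 long noncoding RNAs and neighbours, the 7 genes of apoptosis and matrix at 11q22 or the 7 of DNA damage and chromatin.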

How the data were processed

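SMC1 HiChIP of A673 cells was deposited as 4 per-library files that give a count of PETs and a p-value for each anchor pair, per the file headers. Per the submitters' processing notes, HiC-Pro was used on build hg19, with no version named. The sources used here do not say how loops were called. The authors' deposited table of high-confidence loops chose the members, and their table of differential loops (log2 fold change and adjusted p-value, per the file headers) gave gene names, flags and the counts credited to it. Of 64 gene names, 60 were current RefSeq symbols and 2 older ones.

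Deposited counts were used as they stand. Pairs with at least 20 PETs over the 4 libraries (11872, genome-wide) were tested with edgeR 4.0.16 in R 4.3.3 (quasi-likelihood, genotype alone), with library totals over all pairs and TMM factors, and Benjamini-Hochberg adjustment at 0.05. For the departure, library totals were those of the loop's 5 Mb step; steps under 500 PETs (15 tested pairs) used the chromosome's total. Steps were tested the same way with library totals alone. Shares were compared by exact permutation, two-sided. Fits were tested on simulated data first. DESeq2 1.42.0 was an alternative.

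Named loops were the 15 with the most PETs, all called ones, the 10 with the smallest p of departure in each direction, and up to 3 of the strongest per listed gene; ZBTB16, CLMP, MYEOV and the anchors with many loops were added after their values were seen. Members and lists were chosen with earlier results of these data known. The labels do not say whether replicate numbers pair the libraries, and the main fits did not pair them. The correlation of same-numbered deviations was 0.0037 over members and 0.25 over steps, which does not settle the question. Over all tested pairs, replicates of a group differed by more than sampling noise (chi-square over degrees of freedom 1.17 and 1.06), so each counted as 1.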

Additional observations from a re-analysis of the deposited data

How the results depend on the processing

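Of the 20 departing loops, all 268 values under 14 other settings kept their direction. These loops were chosen for a small p and their groups were apart, which left little room for a change of direction. The 2 loops called higher fell to 0 when any 1 library was left out, with DESeq2, a minimum of 10 PETs or anchors merged within 5 kb, and to 1 with the replicate block, a minimum of 40, high-confidence loops with no minimum, or library totals. The 1 loop called above its region became 0 to 1 without 1 library, 0 with DESeq2, a minimum of 10 or high-confidence loops, and 2 with the chromosome's total. Whether the replicate numbers pair libraries is not stated. With the block 1 loop and 1 step were called higher and 2 steps lower. Of those 2 steps, the step from 40 Mb was also called without the block. Steps called higher (1) ranged over 0 to 3 without 1 library and were 0 with DESeq2, sparse pairs, pairs of at least 20 kb, pairs under 20 kb, steps moved by 2.5 Mb and a minimum of 2000 PETs. Steps called lower (3) ranged over 0 to 8, with 8 without STAG2-null 1 and 0 without wild-type 2, and were 1 with DESeq2 and with pairs under 20 kb. The share of the chromosome had a log2 ratio of -0.027 over high-confidence loops; the long arm gave -0.088 over sparse pairs and 0.016 over high-confidence loops. Values that changed sign were all uncalled. Over single left-out libraries, the difference ran from -0.85 to 0.13 for the 14.8-kb loop from chr11:34151394 (positive without wild-type 2), -0.066 to 0.11 for the loop from chr11:61243515, -0.50 to 0.34 for chr11:61617959 (positive without STAG2-null 2), -0.075 to 0.47 for chr11:65181807 (negative without STAG2-null 2), -0.27 to 0.065 for chr11:118771127 and -0.13 to 0.21 for chr11:123038516. The departure ran from -0.72 to 0.22 for chr11:34151394, -0.28 to 0.21 for the strong loop of chr11:44277073, -0.26 to 0.39 for chr11:61617959, -0.10 to 0.17 for chr11:118771127 and -0.017 to 0.13 for chr11:131754577. Steps ran from -0.042 to 0.0096 (30 Mb), -0.11 to 0.014 (60 Mb), -0.018 to 0.11 (105 Mb) and -0.024 to 0.0018 (130 Mb). With library totals the differences of chr11:61617959 and chr11:131754577 became 0.062 and 0.046, and the first was 0.00048 with no minimum. With a common factor the departures of chr11:61617959, chr11:118771127 and chr11:131754577 became -0.0065, -0.098 and -0.059; that of chr11:118771127 was -0.048 in 10 Mb steps and that of chr11:44277073 0.013 with untested pairs as the total. Pairs under 20 kb gave -0.0054, -0.0064 and 0.017 for the steps from 55, 110 and 115 Mb, and longer pairs 0.0016 and 0.0011 for those from 30 and 130 Mb. The cause was not tested. Another scaling moved the median of all tested loops from -0.04 (TMM) to 0.05 (library totals) and 0.11 (regional totals). Loops held a median of 20 PETs, which limits what a single loop can show.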
